A study of Mus musculus with 2 samples.

Results

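The genes described here are 10 established targets of YAP and TAZ, namely Ankrd1, Amotl1, Amotl2, Axl, Ajuba, Crim1, F3, Ptpn14, Nuak2 and Myof. They were taken by symbol from the 22 tables of a single cell RNA sequencing study of the infarcted mouse heart. All 10 have a row in each of 4 fibroblast subcluster tables, which hold 15059 genes each. In 18 tables of whole clusters, which list only genes that differed between libraries, 4 of the 10 appear, as do 42.2% of the 15059 genes. Interstitial cells of the ventricle of adult mice were measured in 1 library per genotype with 10x Chromium 3′ chemistry. The control library came from PostnMCM hearts, in which tamoxifen-inducible Cre is expressed from the Postn locus and so acts only in cells that use it, the myofibroblasts that arise after injury. The other library is labelled Yapfl/fl;Wwtr1fl/+;PostnMCM, in which loxP sites flank Yap1 on both alleles and Wwtr1, the gene of TAZ, on 1 allele. Both strains carried the R26-eGFP reporter, and both received chow with 0.4 g/kg tamoxifen from the ligation of the coronary artery onwards. Per the labels hearts were taken at 6 days after myocardial infarction (MI), while the study's text gives a later day. How many hearts went into each library is not given in the sources used here.

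YAP and TAZ are transcriptional co-activators without a DNA-binding domain. The Hippo kinases, LATS above all, phosphorylate them and keep them out of the nucleus, and unphosphorylated YAP and TAZ enter it and bind TEAD factors at target genes, often beside AP-1. Many targets are themselves brakes on the pathway. In fibroblasts YAP and TAZ respond to stiff matrix and are known for promoting the myofibroblast state. The comparison asks whether their targets were detected in fewer fibroblasts of the library labelled Yap/Wwtr1-depleted.

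The promoters of the targets were read first, since TEAD factors link YAP and TAZ to them. Of the 10 genes, 9 have a promoter window in RefSeq (GRCm38.p6), 250 bases before to 50 bases after the gene start, and Nuak2 has none in the table. Each window was found again, base for base, at a single place on its chromosome in GRCm39, the build of the deposited data, and the positions below are in GRCm39. The TEAD core, CATTCC or its reverse complement GGAATG, was present in 6 of the 9 windows and in 14.7% of all 32851 promoter windows. A match is a run of letters and not a binding site. The 30 bases around each match are shown 5′ to 3′ on the strand of the gene, with the core in capitals.

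Ankrd1 (chr19:36097437-36097466, minus strand): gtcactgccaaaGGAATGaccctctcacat
Ankrd1 (chr19:36097350-36097379, minus strand): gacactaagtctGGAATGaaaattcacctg
Amotl2 (chr9:102594926-102594955, plus strand): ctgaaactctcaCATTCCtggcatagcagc
Axl (chr7:25488374-25488403, minus strand): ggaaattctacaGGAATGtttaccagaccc
Ajuba (chr14:54815287-54815316, minus strand): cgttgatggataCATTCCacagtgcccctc
Ajuba (chr14:54815265-54815294, minus strand): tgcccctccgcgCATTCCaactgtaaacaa
Crim1 (chr17:78507586-78507615, plus strand): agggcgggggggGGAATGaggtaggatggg
Ptpn14 (chr1:189460307-189460336, plus strand): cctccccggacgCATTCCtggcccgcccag

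Ankrd1 and Ajuba held 2 cores each. The cores lay between 65 bases (Amotl2) and 233 bases (Axl) before the RefSeq gene start. In the GENCODE annotation the cores of Ankrd1, Amotl2 and Crim1 overlap annotated exons of the same genes, those of Ajuba in an exon of the neighbouring Gm63340, and those of Axl and Ptpn14 in no exon. Amotl1, F3 and Myof had no core in the window. The AP-1 motif TGANTCA, which reads the same on both strands, was present in 7.81% of all windows and, among the 9, in that of F3 alone, at 2 neighbouring places in exons of the overlapping genes Gm43823 and Gm64338, the first of which also falls in an exon of F3. They are shown because F3 had the largest difference in share of all targets, with the motif in capitals.

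F3 (chr3:121517029-121517057, plus strand): cgcggcgctgtTGAATCAcggttgagtca
F3 (chr3:121517040-121517068, plus strand): tgaatcacggtTGAGTCAcccctttcggg

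The value given for each gene is the share of cells of a subcluster with a corrected count above 0, pooled by the authors over the cells of 1 library. There were no replicates, so no test was made and no value carries an error. No table states how many cells of each library a subcluster held or how deeply they were read, and counts were not inferred from the shares, so no interval is printed. Per the study's description, subclusters 0 and 4 came mainly from control hearts and subclusters 3 and 5 from both genotypes. The library labelled depleted thus gave the smaller part of the cells of subclusters 0 and 4, and subcluster 1, which came mainly from that genotype, was not analysed here. How fine a share can be is seen from the smallest share above 0 of any gene. In the control library it was 0.7%, 3.3%, 2.5% and 4.3% in subclusters 0, 3, 4 and 5, and in the library labelled depleted 3.1%, 4.3%, 10% and 4.8%. Subcluster 4 of the library labelled depleted was thus the coarsest, with 11 distinct shares over all genes. Summed over genes, the shares gave 4957 to 5605 genes per cell in the control library and 5178 to 5495 in the library labelled depleted. Ratios of shares were taken after adding 1 percentage point to each share, and genes were compared where the mean of both shares was at least 10%. A gene is marked where this ratio was at least 2-fold. The median log2 ratio of all genes compared lay between -0.01 and 0.04 in the 4 subclusters.

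The shares of the targeted genes were not uniformly lower in the library labelled depleted. Yap1 was detected in 46.2%, 23.3%, 57.5% and 30.4% of control cells of subclusters 0, 3, 4 and 5, and in 56.2%, 43.5%, 40% and 47.6% of cells of the library labelled depleted. Its share was thus higher in subclusters 0, 3 and 5 of the library labelled depleted and lower in subcluster 4. Wwtr1 went from 81.4% to 90.6%, from 93.3% to 91.3%, from 80% to 60% and from 100% to 85.7%, and so was higher in subcluster 0 and lower in subclusters 3, 4 and 5. Where the counted reads lie relative to the floxed exons was not analysed here, so these shares neither bear out nor contradict the label.

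The study calls these cells fibroblasts, and their markers were present throughout, with Col1a1, Col1a2, Col3a1 and Dcn in 100% of cells of both libraries in all 4 subclusters. Of 8 fibroblast markers a cell held 5.02 to 7.17 in the control library and 5.34 to 7.62 in the library labelled depleted. Markers of the epicardium and mesothelium (Upk3b, Upk1b, Msln, Krt19 and Wt1) were also widely detected in subclusters 0, 3 and 4, where a cell held on average 3.62 to 4.13 of the 5 in the control library and 3.3 to 4.22 in the other. In subcluster 5, which the study describes as secretory myofibroblasts, a cell held 1.48 of them in the control library and 0.334 in the library labelled depleted. Transcripts of neutrophils and macrophages were detected in many of these cells and less in the library labelled depleted. Of 4 neutrophil markers a control cell held 2.09 to 2.4 and a cell of the library labelled depleted 1.03 to 1.33. For the 6 macrophage markers the averages were 2.78 to 3.53 and 1.91 to 2.8. The 3 T cell markers went the other way, with 0.13 to 0.241 and 0.312 to 0.738. Lists of B cell, endothelial and mural markers stayed at or under 0.75 genes per cell in every subcluster and library. In subcluster 5 the 4 mural markers went from 0.391 to 0.572 per cell, with 2 of them higher and 2 lower. Higher were Notch3 (13% and 47.6%) and Myh11 (0% and 4.8%). Lower were Kcnj8 (17.4% and 0%) and Rgs5 (8.7% and 4.8%). Of the 8 fibroblast markers 2 were higher there, Tcf21 (43.5% and 81%) and Postn (87% and 100%). Pdgfra was lower (87% and 81%) and 5 were equal. What part these transcripts have in the values of the targets was not tested.

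**Figure D1:**
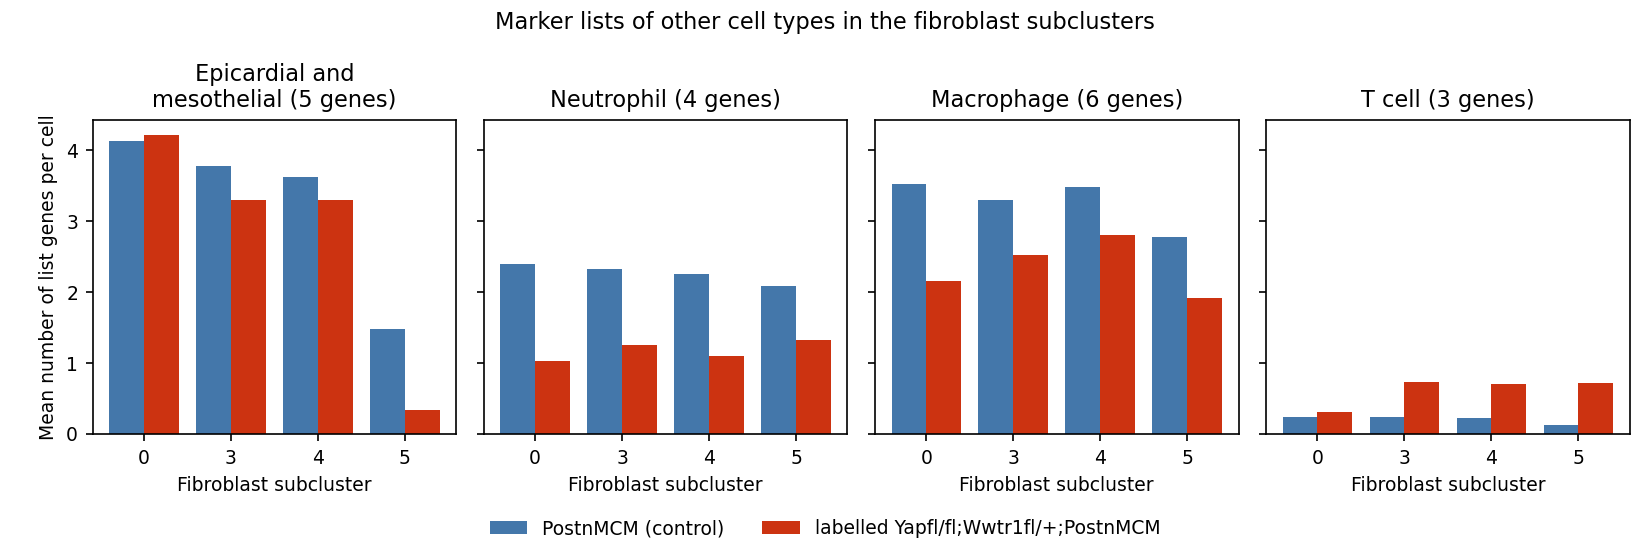
Mean number of marker genes of other cell types detected per cell (vertical axis) in each fibroblast subcluster (horizontal axis), for the control library (blue) and the library labelled Yapfl/fl;Wwtr1fl/+;PostnMCM (red); each bar is 1 library. Epicardial markers were high in subclusters 0, 3 and 4 and lower, at 1.48 and 0.334, in subcluster 5, and neutrophil markers were higher in the control library in each subcluster.

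Over the 10 targets and 4 subclusters, 15 of 40 shares were lower in the library labelled depleted, 22 were higher and 3 were equal. In subcluster 0, 3 targets were lower and 7 higher. In subcluster 3, 6 were lower and 4 higher. In subcluster 4, 3 were lower, 5 higher and 2 equal, and in subcluster 5, 3 were lower, 6 higher and 1 equal. Counting only the targets compared, 2 of 9, 6 of 8, 2 of 9 and 3 of 9 were lower in subclusters 0, 3, 4 and 5. By the same count 7, 2, 5 and 5 were higher. Among all genes compared, 45.9%, 50.3%, 39.7% and 42.1% had a lower share in the library labelled depleted in subclusters 0, 3, 4 and 5, and 50.1%, 44.0%, 48.7% and 52.2% a higher share. The median log2 ratio of the targets compared was 0.19, -0.02, 0.21 and 0.13 in this order, and that of all 10 was 0.12, -0.01, 0.11 and 0.13.

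**Figure D2:**
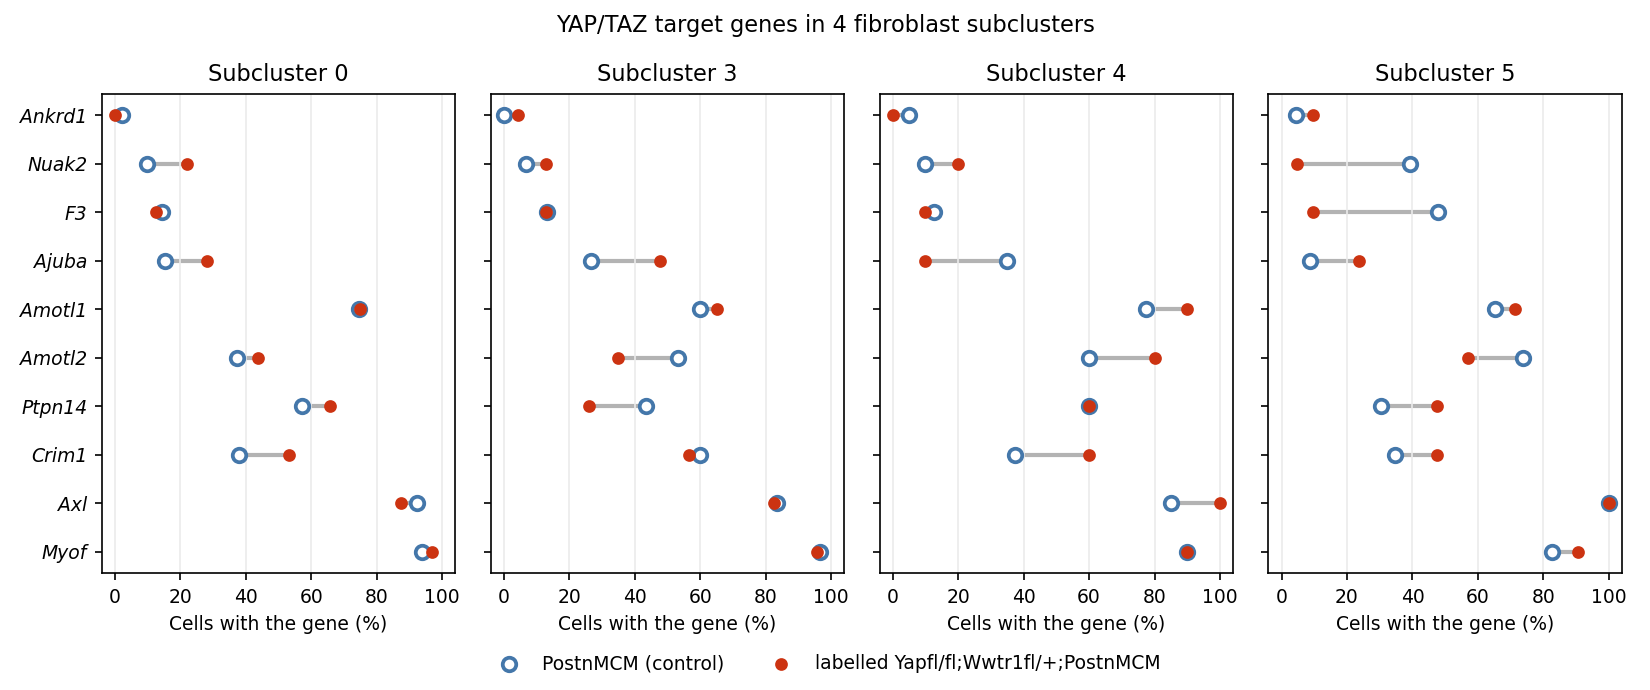
Share of cells with each target gene (horizontal axis, percent) in the control library (open blue circles) and in the library labelled Yapfl/fl;Wwtr1fl/+;PostnMCM (filled red circles), 1 panel per fibroblast subcluster, with a grey line joining both values of a gene. The longest lines are those of F3 (47.8% to 9.5%) and Nuak2 (39.1% to 4.8%) in subcluster 5, while Axl and Myof lie at or above 82.6% in every panel.

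Of the targets compared, 2 of 9 were at least 2-fold lower in subcluster 5, namely F3 and Nuak2, against 6.55% of the 10344 genes compared there. In subcluster 4 it was 1 of 9, Ajuba, against 6.85% of all genes. None was 2-fold lower in subcluster 0 (9 compared, 3.38% of all genes) or subcluster 3 (8 compared, 5.43% of all genes). On the other side, 1 of 9 was at least 2-fold higher in subcluster 0 (Nuak2, against 2.84% of all genes) and 1 of 9 in subcluster 5 (Ajuba, against 9.33%). In subclusters 3 and 4 none was 2-fold higher, against 5.51% and 8.09% of all genes. Ankrd1 was under the limit of 10% in all 4 subclusters and Nuak2 in subcluster 3. Counted by a difference of at least 10 percentage points, 0, 2, 1 and 3 of the targets compared were lower in subclusters 0, 3, 4 and 5, against 12.9%, 21.9%, 22.9% and 19.6% of all genes. By the same count 3, 1, 5 and 3 were higher, against 14.7%, 17.4%, 31.7% and 28.1%.

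**Figure D3:**
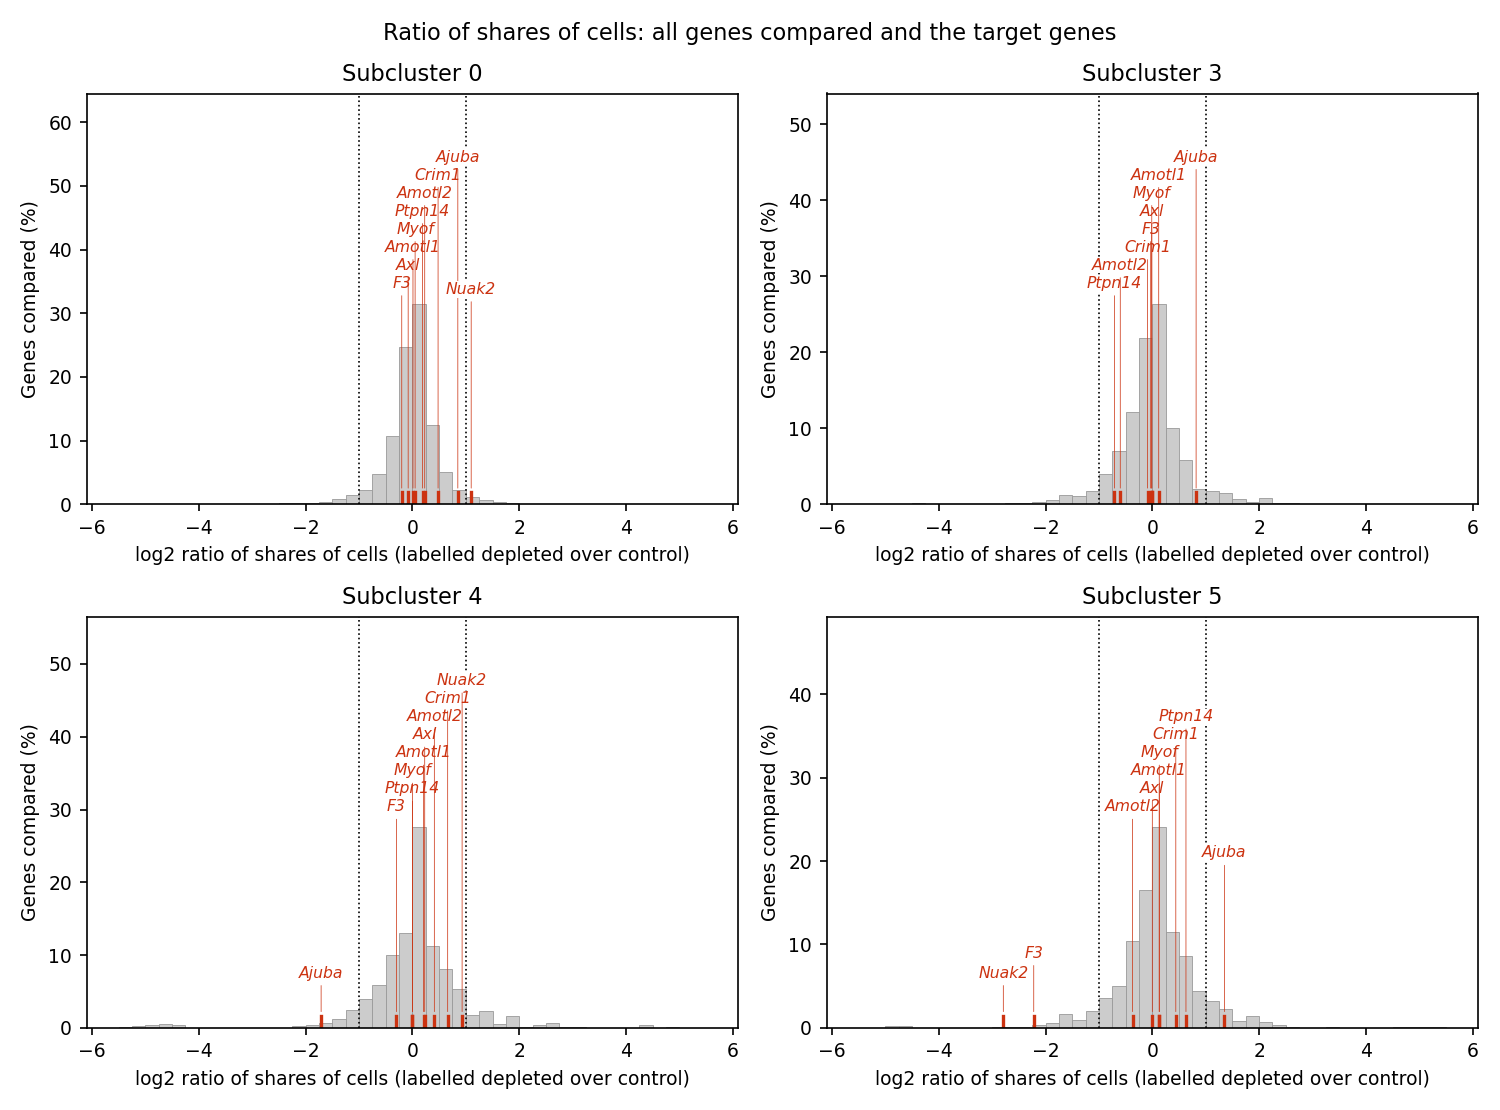
Distribution of the log2 ratio of shares of cells, library labelled depleted over control (horizontal axis), over all genes compared in each fibroblast subcluster (grey bars, percent of genes, with any value past -6 or 6 counted in the outermost bar), with the targets compared marked in red and a 2-fold difference by dotted lines. Nuak2 (-2.79) and F3 (-2.22) lie in the low tail in subcluster 5 and Ajuba (-1.71) past 2-fold on the low side in subcluster 4, while Nuak2 (1.10) in subcluster 0 and Ajuba (1.35) in subcluster 5 lie past 2-fold on the high side, and the other targets lie between the dotted lines.

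Among the targets at the cell surface, F3 stood out. F3 (ENSMUSG00000028128; chromosome 3, 121516610 to 121528820, plus strand, by the GENCODE annotation of GRCm39) encodes tissue factor, the receptor that starts blood coagulation. In the control library it was detected in 14.5%, 13.3%, 12.5% and 47.8% of cells of subclusters 0, 3, 4 and 5. In the library labelled depleted the shares were 12.5%, 13%, 10% and 9.5%. The control library thus had a peak of F3 in subcluster 5, with a range of 35.3 points over the 4 subclusters, and the library labelled depleted had none, with a range of 3.5 points. The difference in subcluster 5 was -38.3 points and the log2 ratio -2.22, and 122 of the 10344 genes compared (1.18%) had a ratio as low or lower. In the other subclusters the difference was at most 2.5 points in size, less than the smallest step of the library labelled depleted. In subcluster 5 the epicardial markers were lower as well, 5 of 5, with Wt1 going from 73.9% to 14.3%. In control cells of subclusters 0, 3 and 4 Wt1 was in 92.5% to 97.2% of cells and F3 in at most 14.5%. Pooled shares do not show whether the same cells held both genes. What part the epicardial markers have in the F3 share of subcluster 5 was not tested.

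Nuak2 (ENSMUSG00000009772; chromosome 1, 132243853 to 132261226, plus strand), an AMPK-related kinase, had a similar peak. Its shares in the control library were 9.7%, 6.7%, 10% and 39.1% in subclusters 0, 3, 4 and 5, and in the library labelled depleted 21.9%, 13%, 20% and 4.8%. In control cells subcluster 5 was the highest, and in the library labelled depleted it was the lowest. The difference was -34.3 points (log2 ratio -2.79) in subcluster 5, where 65 genes (0.628%) had a ratio as low or lower. The share of 4.8% is the smallest above 0 that any gene had there, so the size of this ratio rests on the finest step of that library. The epicardial markers (1.48 and 0.334 per cell), Wt1 among them, were lower in subcluster 5 as well. Of the 6 macrophage markers 4 were lower there, among them Cd68 (21.7% and 0%). The other 2, C1qa (60.9% and 66.7%) and Csf1r (13% and 23.8%), were higher. The part of these markers in the Nuak2 share was not tested. In the other 3 subclusters Nuak2 was higher in the library labelled depleted, by 12.2, 6.3 and 10 points. The smallest steps of that library in subclusters 3 and 4 were 4.3% and 10%, so these 6.3 and 10 points are no more than 1 or 2 steps. Only the value in subcluster 0, with a log2 ratio of 1.10, passed 2-fold, and 2.26% of genes compared there had a ratio as high or higher.

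**Figure D4:**
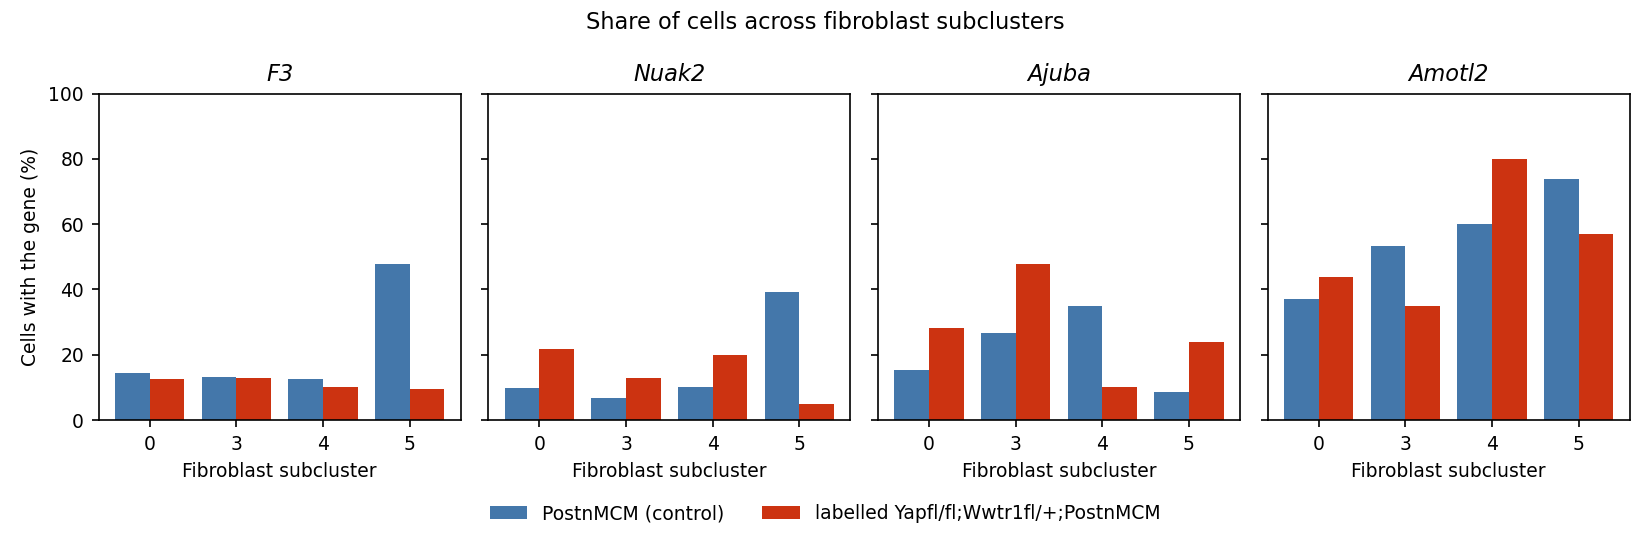
Share of cells with F3, Nuak2, Ajuba and Amotl2 (vertical axis, percent) across the 4 fibroblast subclusters (horizontal axis) in the control library (blue bars) and the library labelled Yapfl/fl;Wwtr1fl/+;PostnMCM (red bars), 1 library per bar. F3 and Nuak2 were highest in subcluster 5 of the control library, at 47.8% and 39.1%, and lowest there in the library labelled depleted, at 9.5% and 4.8%.

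The remaining targets at the membrane are Axl, Myof and Crim1, none of which passed 2-fold in any subcluster. Axl (ENSMUSG00000002602; chromosome 7, 25456535 to 25488329, minus strand) is a receptor tyrosine kinase that binds Gas6. It was in 92.4%, 83.3%, 85% and 100% of control cells and in 87.5%, 82.6%, 100% and 100% of cells of the library labelled depleted. Myof (ENSMUSG00000048612; chromosome 19, 37887484 to 38032048, minus strand) encodes myoferlin, a ferlin of membrane repair and fusion. Its shares were 93.8%, 96.7%, 90% and 82.6% in the control library and 96.9%, 95.7%, 90% and 90.5% in the library labelled depleted. Both genes were at or above 82.6% in every subcluster and library. A share so close to 100% cannot show a difference in the level per cell.

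Crim1 (ENSMUSG00000024074; chromosome 17, 78507601 to 78684021, plus strand) encodes a transmembrane protein with cysteine-rich repeats that binds BMP ligands. It was in 37.9%, 60%, 37.5% and 34.8% of control cells and in 53.1%, 56.5%, 60% and 47.6% of cells of the library labelled depleted. Crim1 was therefore higher in the library labelled depleted in 3 subclusters, by 12.8 to 22.5 points, and 3.5 points lower in subcluster 3. Its spread over the subclusters was 25.2 points in the control library and 12.4 points in the other.

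The next group are targets that act back on the pathway. Amotl1 and Amotl2 encode angiomotin-like proteins, and Ptpn14 a tyrosine phosphatase, all of which bind YAP and hold it in the cytoplasm or at junctions. Amotl1 (ENSMUSG00000013076; chromosome 9, 14453262 to 14556352, minus strand) was in 74.5%, 60%, 77.5% and 65.2% of control cells and in 75%, 65.2%, 90% and 71.4% of cells of the library labelled depleted. Its differences of 0.5 to 12.5 points were each under 2 of the smallest steps of the library labelled depleted.

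Amotl2 (ENSMUSG00000032531; chromosome 9, 102593836 to 102610617, plus strand) was in 37.2%, 53.3%, 60% and 73.9% of control cells and in 43.8%, 34.8%, 80% and 57.1% of cells of the library labelled depleted. It was lower by 18.5 and 16.8 points in subclusters 3 and 5 and higher by 6.6 and 20 points in subclusters 0 and 4. Like F3 and Nuak2 it was highest in subcluster 5 of the control library. In the library labelled depleted its highest share was in subcluster 4.

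Ptpn14 (ENSMUSG00000026604; chromosome 1, 189460446 to 189608892, plus strand) was in 57.2%, 43.3%, 60% and 30.4% of control cells and in 65.6%, 26.1%, 60% and 47.6% of cells of the library labelled depleted. It was 17.2 points lower in subcluster 3 and 17.2 points higher in subcluster 5. In both of these subclusters the ratio stayed under 2-fold, at log2 ratios of -0.71 and 0.63, and 10% of genes compared in subcluster 3 had a ratio as low as that of Ptpn14 or lower.

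Ajuba (ENSMUSG00000022178; chromosome 14, 54804787 to 54815027, minus strand) encodes a LIM protein that binds LATS kinases. It was in 15.2%, 26.7%, 35% and 8.7% of control cells and in 28.1%, 47.8%, 10% and 23.8% of cells of the library labelled depleted. The share was higher in the library labelled depleted in subclusters 0, 3 and 5, by 12.9, 21.1 and 15.1 points, and 25 points lower in subcluster 4. The log2 ratio of -1.71 in subcluster 4 was reached or passed downwards by 2.72% of all genes compared, and that of 1.35 in subcluster 5 was reached or passed upwards by 5.35%. The share of 10% in subcluster 4 is the smallest above 0 there, so that this ratio, too, rests on the finest step.

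Ankrd1 (ENSMUSG00000024803; chromosome 19, 36089352 to 36097506, minus strand), which encodes a cardiac ankyrin repeat protein that is abundant in stressed cardiomyocytes, was rarely detected. In the control library it was in 2.1%, 0%, 5% and 4.3% of cells and in the library labelled depleted in 0%, 4.3%, 0% and 9.5%. These shares lie at or within a few of the smallest steps, and no fold is given. A control cell held 0.259 to 0.575 of 8 cardiomyocyte markers on average and a cell of the library labelled depleted 0.031 to 0.4. In the library labelled depleted 7 of the 8 were at 0 in subclusters 0 and 3, among them Tnnt2, Ttn and Nppa. The remaining marker, Myh6, was at 3.1% and 4.3% there, and Ankrd1 at 0% and 4.3%. What part cardiomyocyte RNA has in the Ankrd1 shares was not tested.

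Among all other genes, the 1 with the smallest mean absolute difference in share over the 8 values (4 subclusters in 2 libraries) was named for each target. For F3 it was LOC115486533, at 2.61 points, with 43.5% of control cells and 14.3% of cells of the library labelled depleted in subcluster 5. For Nuak2 it was Zfp383, at 3.42 points, with 39.1% and 14.3% there. For Axl it was Lamc1 (1.28 points), for Myof G3bp2 (1.46 points), for Amotl1 Ccnl2 (2.2 points), for Crim1 Alkbh3 (3.81 points), for Ajuba Nme7 (4.05 points), for Ptpn14 Nfx1 (4.15 points), for Amotl2 Gpr153 (4.6 points) and for Ankrd1 Fbxl2 (0.4 points). The 8 values share 2 libraries.

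Other YAP/TAZ targets were read in the same way from a list of 14 genes, 13 of which have a row. In subcluster 0, 6 were lower, 6 higher and 1 equal in the library labelled depleted, and the counts were the same in subcluster 3. In subcluster 4, 7 were lower, 4 higher and 2 equal, and in subcluster 5, 5 were lower, 7 higher and 1 equal. Of these, 11, 10, 11 and 12 were compared in subclusters 0, 3, 4 and 5, with 4, 5, 6 and 5 lower and 6, 4, 3 and 6 higher. Over all genes compared, 45.9%, 50.3%, 39.7% and 42.1% were lower and 50.1%, 44.0%, 48.7% and 52.2% higher. At least 2-fold lower were 0, 0, 0 and 1 of the listed targets, against 3.38%, 5.43%, 6.85% and 6.55% of all genes. Past 2-fold on the high side were 0, 0, 2 and 1, against 2.84%, 5.51%, 8.09% and 9.33%. The gene at least 2-fold lower was Dock5, a guanine nucleotide exchange factor, in subcluster 5 (21.7% in the control library and 9.5% in the library labelled depleted). At least 2-fold higher were Gadd45a, a stress response gene, in subcluster 4 (7.5% and 30%) and subcluster 5 (8.7% and 23.8%), and Tgfb2, a TGF-β ligand, in subcluster 4 (17.5% and 60%).

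Of 18 regulators of YAP and TAZ, 17 have a row. In subclusters 0, 3, 4 and 5, 6, 6, 8 and 4 of them were lower and 11, 11, 5 and 13 higher in the library labelled depleted, with 4 equal in subcluster 4. Of the 17, 16, 17 and 16 compared, 6, 5, 8 and 4 were lower and 11, 11, 5 and 12 higher. Among all genes compared, 45.9%, 50.3%, 39.7% and 42.1% were lower and 50.1%, 44.0%, 48.7% and 52.2% higher. None of the regulators compared was 2-fold lower. At least 2-fold higher were 1 of 17, 1 of 16, 0 of 17 and 2 of 16 compared, against 2.84%, 5.51%, 8.09% and 9.33% of all genes. Tead2, a partner of YAP and TAZ on DNA, was higher in all 4 subclusters, at 15.2%, 16.7%, 30% and 21.7% of control cells and 37.5%, 30.4%, 50% and 71.4% of cells of the library labelled depleted. It passed 2-fold in subclusters 0 and 5. Lats1 passed 2-fold in subcluster 3 (30% and 69.6%), and Nf2, an activator of the Hippo kinases, in subcluster 5 (8.7% and 23.8%).

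In the tables of whole clusters, a gene is listed only if the share reached 25% in 1 of the libraries and if it differed by at least 0.25 in the authors' log2 fold change, so a target that is absent from a table has no value there. The table of the fibroblast cluster, cluster 5, lists 605 genes, 4.02% of the 15059, and none of the 10 targets. From the other lists it holds Tgfb2 (32.9% of control cells and 60.4% of cells of the library labelled depleted), Tead1 (54.7% and 69%) and Tead2 (6.7% and 25.1%). Over all 18 tables there were 7 listings of 4 targets, 3 of them higher and 4 lower in the library labelled depleted. Ankrd1, Amotl1, Amotl2, Ajuba, F3 and Ptpn14 were listed nowhere. Since F3 has no listing outside the fibroblasts, its background from free RNA is unknown here.

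**Figure D5:**
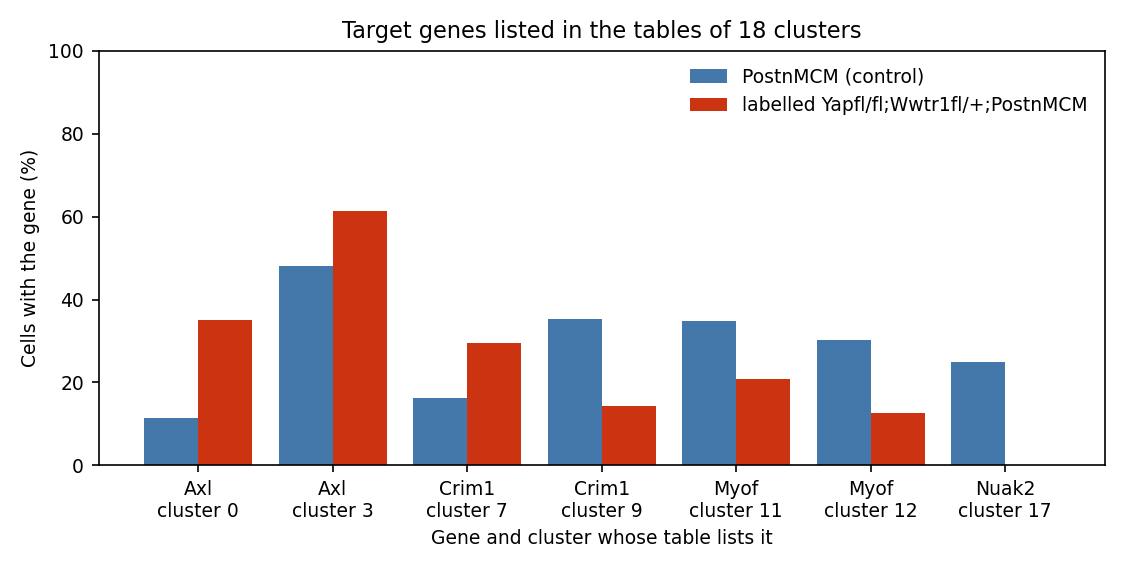
Share of cells (vertical axis, percent) for each target and cluster whose table lists it (horizontal axis), in the control library (blue bars) and the library labelled Yapfl/fl;Wwtr1fl/+;PostnMCM (red bars), 1 library per bar. Axl was higher in the library labelled depleted in clusters 0 and 3, Myof lower in clusters 11 and 12, Crim1 split between clusters 7 and 9, and Nuak2 was at 25% and 0% in cluster 17.

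Axl was listed in clusters 0 and 3, which the study names macrophages or monocytes and in which Lyz2 was in at least 99.6% of cells. In cluster 0 it went from 11.3% of control cells to 35.1% in the library labelled depleted, a log2 ratio of 1.55, and 5.2% of the 923 genes listed there were at least 2-fold higher and 61.1% higher. In cluster 3 it went from 48.2% to 61.3%, under 2-fold, where 58.5% of the genes listed were higher and 6.69% at least 2-fold higher. Myof was listed in clusters 11 and 12, further macrophage or monocyte clusters. It went from 34.7% to 20.8% in cluster 11 and from 30.2% to 12.7% in cluster 12. Only the value in cluster 12 passed 2-fold, where 6.15% of the 650 genes listed were at least 2-fold lower and 47.4% lower. Of the genes listed in cluster 11, 54.7% were lower and 15.0% at least 2-fold lower. In cluster 11 Lyz2 was also lower, at 76.4% and 45.8%, as was Csf1r, at 79.2% and 50%. The neutrophil transcripts S100a8 and S100a9 were both lower in the library labelled depleted in clusters 0, 3 and 11. In cluster 12 S100a8 was at 47.9% and 51.9% and S100a9 at 63.5% and 46.8%. In cluster 0 the cardiomyocyte transcript Ttn was at 25.7% and 1.3% and, of the macrophage markers, Adgre1 at 77.4% and 89.9% and Cd68 at 93.1% and 88.6%. Fibroblast transcripts were listed too, with Col3a1 at 41.5% and 26% in cluster 3 and at 30.2% and 19% in cluster 12, and Dcn at 30.2% and 6.3% in cluster 12. What part these differences have in the Axl and Myof shares was not tested.

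Crim1 was listed in cluster 7, which the study names T cells, and in cluster 9, to which its text gives no type. In cluster 7, with Cd3g in 96% and 96.9% of cells, it went from 16.2% to 29.6%, where 27.1% of the genes listed were higher and 4.04% at least 2-fold higher. In cluster 9, with Cd3g in 94.1% and 97.9% of cells, it went the other way, from 35.3% to 14.3%. The smallest share above 0 listed in cluster 9 was 5.9% in the control library and 0.5% in the library labelled depleted, from which most of its cells came by the study's account. Of the genes listed, 23.2% of 1302 were at least 2-fold lower and 64.4% lower. Col3a1 was lower in both clusters, at 32.3% and 12.6% in cluster 7 and at 41.2% and 16.9% in cluster 9, as was S100a8, at 63.6% and 40.3% and at 58.8% and 27.5%. In cluster 9 the mural marker Notch3, at 35.3% and 61.9%, and the B cell marker Cd79b, at 23.5% and 38.1%, were higher. Nuak2 was listed in cluster 17, the dendritic cells, in 25% of control cells and at 0% in the library labelled depleted. There 38.7% of the 1914 genes listed were at least 2-fold lower and 57.5% lower, and the smallest share above 0 in the library labelled depleted was 9.1%. Col3a1 was at 35% and 0% in the same cluster and S100a8 at 25% and 9.1%. What part these transcripts have in the Crim1 and Nuak2 shares was not tested.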

How the data were processed

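Cells of both libraries were processed by the authors with Cell Ranger 6.1.1 (submitters' processing notes) on GRCm39 with reporter sequences and then with Seurat. The authors dropped genes seen in few cells, clusters of poor cells and cells with very high counts or mitochondrial shares, applied SCTransform, clustered the cells, and repeated this within the fibroblast cluster. No doublet caller is named in the sources used here, so doublets may remain. The deposited fraction is the share of cells of a cluster with a corrected count above 0 in 1 library, pooled over cells and printed here as a percent. The tables also hold the authors' own comparison (average log2 fold change, p-value, adjusted p-value), which was not used. Not analysed here were cluster 16 and, of the fibroblasts, subclusters 1 and 2.

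Shares were compared with Python 3.11.15, numpy 2.4.6 and pandas 2.3.3 as differences in percentage points and as log2 ratios with an offset of 1 point, for genes with a mean share of at least 10%. A ratio of at least 2-fold marked a gene. The calculation was tested on simulated data. The rule for named genes took all targets, Yap1, Wwtr1 and Postn as checks, genes of both pathway lists past 2-fold, and the nearest gene to each target. Tead1 and single marker genes were named after their values were seen. Postn was at 25.5%, 40%, 10% and 87% of control cells and 28.1%, 13%, 20% and 100% of cells of the library labelled depleted in subclusters 0, 3, 4 and 5. The targets and lists were chosen with earlier results of these data known. Alternatives were an offset of 5 points, centring, no limit on the mean share and a difference of 10 points. Protein sequences were not used here.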

Additional observations from a re-analysis of the deposited data

Results flagged for a closer look

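Ajuba and Nuak2 each were at least 2-fold higher in the library labelled depleted in 1 fibroblast subcluster and at least 2-fold lower in another. Between subclusters 5 and 4 the log2 ratio of Ajuba differed by 3.06 (1.35 and -1.71). Between subclusters 0 and 5 that of Nuak2 differed by 3.89 (1.10 and -2.79). Each subcluster holds 1 library per group, so the difference between subclusters was not tested, and in both genes the lower value rests on a share at the smallest step of the library.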

How the results depend on the processing

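No paired analysis was possible because there was a single library per genotype. The medians over the targets compared (0.19, -0.02, 0.21 and 0.13) and the counts of those with a lower share (2, 6, 2 and 3) moved by at most 0.1 (log2) or 1.5 times under each alternative run on them. Counts past 2-fold were small and moved more. With an offset of 5 points Nuak2 no longer passed 2-fold in subcluster 0 (0 higher, log2 ratio 0.87). Without the limit on the mean share, Ankrd1 added itself, giving 1 lower in subcluster 0, 1 higher in subcluster 3 and 2 lower in subcluster 4. With a difference of 10 points in place of 2-fold, the counts were 3 higher in subcluster 0, 2 lower and 1 higher in subcluster 3, 5 higher in subcluster 4 and 3 higher in subcluster 5. An alternative chosen after seeing the data left out targets whose lower share was at most the smallest above 0, which gave 0 lower in subcluster 4 (without Ajuba) and 1 lower in subcluster 5 (without Nuak2, leaving F3). Over 40 values each, no log2 ratio of a single target went from positive to negative or back under another offset or centring. Centring moved Axl in subcluster 5 from 0 to -0.04, so that 4 targets there were lower in place of 3. Cell numbers were not inferred from the shares, so no counting error stands beside a value, and a difference of 1 or 2 of the smallest steps should not be read as one.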
